A study of Mus musculus with 52 samples.

Results

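The genes described here encode xenobiotic-metabolising enzymes, measured in organoids grown from mouse intestine under vehicle, all-trans retinoic acid or an antagonist of the retinoid X receptors. They are the phase I cytochrome P450 monooxygenases of the Cyp1, Cyp2 and Cyp3 families and the phase II glutathione transferases (Gst), UDP-glucuronosyltransferases (Ugt) and sulfotransferases (Sult). Members were found by a rule on gene symbols, which gave 112 of the 24116 genes in the table. Of these, 78 reached 1 RPKM (reads per kilobase of gene, scaled to the size of the library) in at least 4 of 51 libraries, and 32 were at 1 RPKM or more in all 51. Of the other 34, 10 were never above 0 and 24 were above 0 only at lower levels or in fewer libraries. The nearest of these below the limit were Cyp2c37 and Gsto2, each at 1 RPKM in 2 libraries, and the nearest above it were Cyp2c70, Cyp2d12, Cyp2e1 and Cyp2r1, each in 4. The 78 genes comprised 38 P450 genes (3 Cyp1, 28 Cyp2, 7 Cyp3), 20 glutathione transferases (4 Gsta, 7 Gstm, 3 Gstp, 3 Gstt, and Gstk1, Gsto1 and Gstz1), 16 glucuronosyltransferases (7 Ugt1a, 9 Ugt2) and 4 sulfotransferases. The families with the lowest share measured were Sult2, with 1 of 9 members, and Sult1, with 3 of 6.

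Phase I enzymes oxidise drugs, dietary compounds and steroids, with electrons supplied by the P450 reductase Por. Phase II enzymes then attach glutathione, glucuronic acid or sulfate, which makes the products soluble enough to export, and in the intestine much of this takes place in absorptive enterocytes as the first barrier to swallowed compounds. The aryl hydrocarbon receptor (Ahr) is the classical inducer of the Cyp1 genes. The pregnane X receptor (Nr1i2) and the constitutive androstane receptor (Nr1i3) induce Cyp2b, Cyp2c and Cyp3a genes and bind DNA as partners of the retinoid X receptors. Nfe2l2 induces many glutathione transferases.

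All groups were wild-type C57BL/6 organoids from 2 male littermates aged 8 weeks, so each group holds 2 cultures. RNA of each culture was purified in duplicate from 3 pooled wells seeded with 50000 single cells each. The labels number 2 preparations per group, and these were read as the 2 cultures. The 13 groups were a DMSO group on day 0 and, on days 1, 3, 4 and 5, groups given DMSO (the vehicle), atRA (all-trans retinoic acid, which activates the retinoic acid receptors) at 10 µM or RXRi (the antagonist) at 5 µM. Drug or vehicle was given on day 0 and again on day 3. Also on day 3, Y-27632 (a ROCK inhibitor), CHIR99021 (a GSK3B inhibitor) and the medium conditioned by Wnt3a cells were taken away from all groups, so the step from day 3 to day 4 is also a change of medium. Values after ± are the SD over 2 cultures for a level in RPKM, and the standard error of the fit for a log2 fold change. Fold changes are on the scale log2(RPKM + 1), which understates the change of low genes, and a gene was called where the Benjamini-Hochberg adjusted p of limma over 12443 tested genes was under 0.05. The 2 cultures measure only the spread between 2 littermates in 1 experiment.

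The 51 libraries held 12895667 to 26206028 reads (median 19686971), and 3 reads in a 1 kb gene came to 0.233 RPKM in the shallowest of them, so that levels below this rest on few reads, counting error only. A further library, the second duplicate from culture 1 of DMSO day 1, had only 12443 reads and is left out, which leaves 3 libraries there. In that library 3 reads in a 1 kb gene came to 241 RPKM. Keeping this library ended several of the calls given below, namely those of Cyp1a1 and Sult2b1 from day 0 to day 1, Gstm5 from day 3 to day 4, Cyp1a1 in RXRi on day 5, Gsta3 in the change of the atRA effect, and Gsta4, Gstm3, Gstm4, Gstt2, Sult1c2, Sult2b1, Ugt1a1 and Ugt2b34 in 1 or more of the atRA comparisons of days 1, 4 and 5. The step from day 3 to day 4 and the comparisons within days 4 and 5 do not hold DMSO day 1. There the library could act only through the fit shared by all groups and the genes tested. The intestinal label was checked against marker genes. In the DMSO organoids of day 5, the 10 enterocyte markers summed to 15967 and 20328 RPKM in the 2 cultures and the 5 Paneth cell markers to 2408 and 3293 RPKM, and 5 stomach markers to 3.26 and 4.85 RPKM. In the RXRi organoids of day 5, the same lists summed to 289.6 and 319, 10.5 and 16.8 and 4562 and 5024 RPKM, nearly all of the last being Tff1, a stomach mucous cell peptide, at a mean of 4747 RPKM. In bulk RNA, fewer cells of a type and less RNA per cell cannot be told apart.

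**Figure D1:**
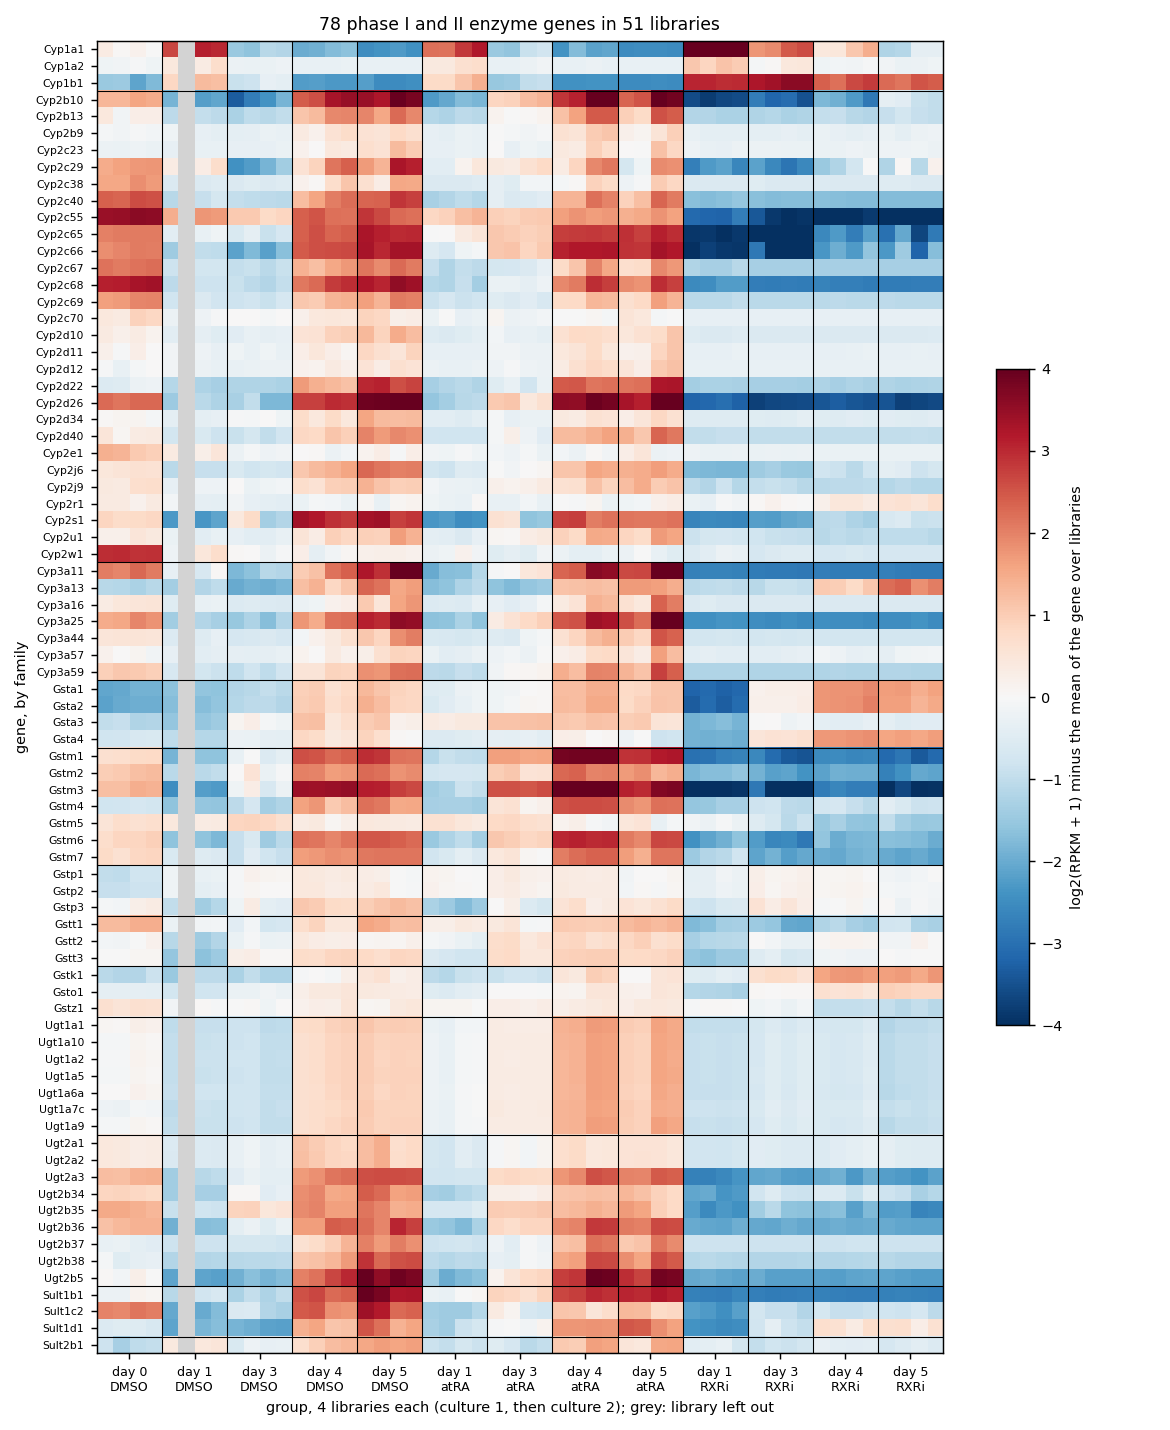
Levels of the 78 genes (rows, ordered by family) in the 51 libraries (columns, ordered by day and treatment), coloured by log2(RPKM + 1) minus the mean of the gene over the libraries and with grey for the library left out. Most rows are high in the DMSO and atRA libraries of days 4 and 5 and low in the RXRi libraries of those days, whereas Cyp1a1, Cyp1b1, Gsta4 and Gstk1 are highest in RXRi libraries.

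In vehicle alone, most of the enzymes fell in the first day and rose on day 4, after the change of medium. From day 0 to day 1, 57 of the 78 genes fell and 7 rose, against 35.6% and 25.6% of all 12443 genes, and the median log2 fold change was -0.93 for the enzymes and -0.09 for all genes. The genes that rose were Cyp1a1, Cyp1a2, Cyp1b1, Gsta1, Gstp1, Gstp2 and Sult2b1. From day 1 to day 3, 18 rose and 7 fell (background 6.19% and 6.49%). From day 3 to day 4, 68 rose and 2 fell (background 20.5% and 34.3%), with a median of 1.63 against -0.10 for all genes. Those that fell were Cyp1b1 and Gstm5, and every family but Cyp1 had more genes rising than falling. From day 4 to day 5, 11 rose and 0 fell in the limma test (background 2.11% and 1.33%), with 32 rising and 1 falling at an unadjusted p under 0.05, and 12 and 0 by limma-voom on recovered reads. The background, here and below, is that of limma calls at an adjusted p under 0.05. None is given for counts at an unadjusted p or by limma-voom. Over the whole course, 58 genes were higher on day 5 than on day 0 and 7 lower (background 18.7% and 51.1%). The 10 enterocyte markers summed to 1252 and 1625 RPKM on day 0, 600.2 and 689 on day 1, 508 and 526 on day 3, 5978 and 6343 on day 4 and 15967 and 20328 on day 5. Of the 10, 1 was higher and 6 lower from day 0 to day 1, and 9 were higher and 0 lower from day 3 to day 4. From day 1 to day 3, 1 was higher and 4 lower, while more enzymes rose than fell. The 5 stem cell markers went from 1073 and 1085 RPKM on day 0 to 89.2 and 95.7 on day 1 (1 higher, 4 lower), and the 5 enteroendocrine markers from 1489 and 1836 on day 1 to 67 and 76.8 on day 3 (5 lower). Their part in the result was not tested. The counts of the smaller steps moved with single cultures. The 25 genes called from day 1 to day 3 became 16 or 14 without culture 1 or 2 of day 1 and 13 without culture 1 of day 3, and the 11 called from day 4 to day 5 became 4 or 7 without culture 1 or 2 of day 4, and 17 with the culture number as a replicate block.

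With atRA, some of the enzymes were higher than in DMSO on days 1, 3 and 4, most of all on day 3, and on day 5 more were lower than higher. On day 1, 15 of 78 were higher and 1 lower (background 1.93% and 1.53%). On day 3, 33 were higher and 0 lower by limma (background 4.32% and 4.36%), with a median of 0.55 against -0.04, and 1 lower at an unadjusted p under 0.05 and 0 by limma-voom. For 59 of the 78 genes every atRA library of day 3 lay above every DMSO library of that day, and for 1 gene every library lay below. Duplicates of a culture stand as separate libraries in this count, and it was not made over all genes. On day 4, 17 were higher and 1 lower (background 3.58% and 7.35%). On day 5, 1 was higher and 7 were lower (background 2.14% and 2.89%), with a median of -0.14 against 0.00. The gene higher was Gstt2, and those lower were Sult1c2, Ugt2b34, Cyp2c55, Gsta4, Cyp2d10, Cyp2d34 and Cyp2j6. Averaged over the 4 days, 31 were higher and 5 lower (background 7.98% and 15%). In the test of the difference itself, the atRA effect of day 5 was lower than that of day 1 for 9 genes and higher for 0 (background 0.659% and 0.49%), with 27 lower and 0 higher at an unadjusted p under 0.05, and 6 and 0 by limma-voom. The last 2 counts have no background beside them. The 7 Ugt1a genes share exons, and counting them once left 9 higher on day 1, 27 on day 3 and 11 on day 4. The enterocyte markers were also higher in atRA, at 8856 and 9305 RPKM on day 3 against 508 and 526 in DMSO and at 31599 and 32080.3 on day 4 against 5978 and 6343, with 8 and 7 of 10 higher and 0 lower. On day 5 they summed to 25302 and 42454 RPKM in atRA and 15967 and 20328 in DMSO (2 higher, 1 lower), while 7 enzymes were lower and 1 higher. Of the 5 goblet cell markers, 5 were higher on days 3 and 4 and 3 on day 5, and 0 lower. The part of these markers in the result was not tested.

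Several of the atRA counts moved with single cultures. The 16 genes called on day 1 became 7 without DMSO culture 1 and 6 without atRA culture 2, and the 18 called on day 4 became 6 without DMSO culture 1, 12 without DMSO culture 2 and 3 without atRA culture 2. The 8 genes of day 5 became 4 without DMSO culture 1, 14 without DMSO culture 2, and 18 and 19 without atRA culture 1 or 2, and with the culture number as a replicate block they became 14. In the change from day 1 to day 5, 9 genes became 3 or 4 without DMSO culture 1 or 2 of day 1, 5 or 4 without atRA culture 1 or 2 of day 1, 4 or 14 without DMSO culture 1 or 2 of day 5, and 23 without atRA culture 2 of day 5. The mean over days gave 36 calls and 54 without atRA culture 1 of day 5. The 33 calls of day 3 ranged from 25 to 30.

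Under RXRi, 27 of the enzymes were lower than in DMSO on the first day, and on days 4 and 5 most of the set was. On day 1, 27 of 78 were lower and 4 higher (background 9.93% and 10.5%). On day 3, 25 were lower and 13 higher (background 25.4% and 18.4%), shares of the same order as those of all genes. On day 4, 63 were lower and 7 higher (background 37% and 22%), with a median of -1.43 against -0.13. On day 5, 66 were lower and 8 higher (background 35.1% and 28.7%), with a median of -2.0 against -0.06. For 66 and 8 genes all RXRi libraries lay below or above all DMSO libraries, a count that was not made over all genes. The 8 genes higher on day 5 were Cyp1a1, Cyp1b1, Cyp2r1, Gsta1, Gsta2, Gsta4, Gstk1 and Gsto1, and the 4 not called were Cyp1a2, Cyp3a13, Gstp1 and Gstt2. Over the mean of 4 days, 66 were lower and 10 higher (background 42.8% and 30.1%). The effect of day 5 was below that of day 1 for 60 genes and above it for 6 (background 23.6% and 17.8%). Set against each other over the mean of 4 days, atRA was above RXRi for 69 genes and below it for 7 (background 40.8% and 34.3%). The atRA and RXRi comparisons of a day share their DMSO libraries. On day 5 all 10 enterocyte, 5 stem cell, 5 Paneth cell, 5 goblet cell and 5 enteroendocrine markers were lower in RXRi and 4 of 5 stomach markers were higher. The stomach sum was 37.3 and 37.9 RPKM in RXRi on day 1 and 4562 and 5024 on day 5. The sum of 5 tuft cell markers was 32.2 and 35.5 RPKM in RXRi and 1.44 and 1.78 in DMSO on day 5 (of 3 tested, 1 higher and 2 lower). Their part in the result was not tested.

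**Figure D2:**
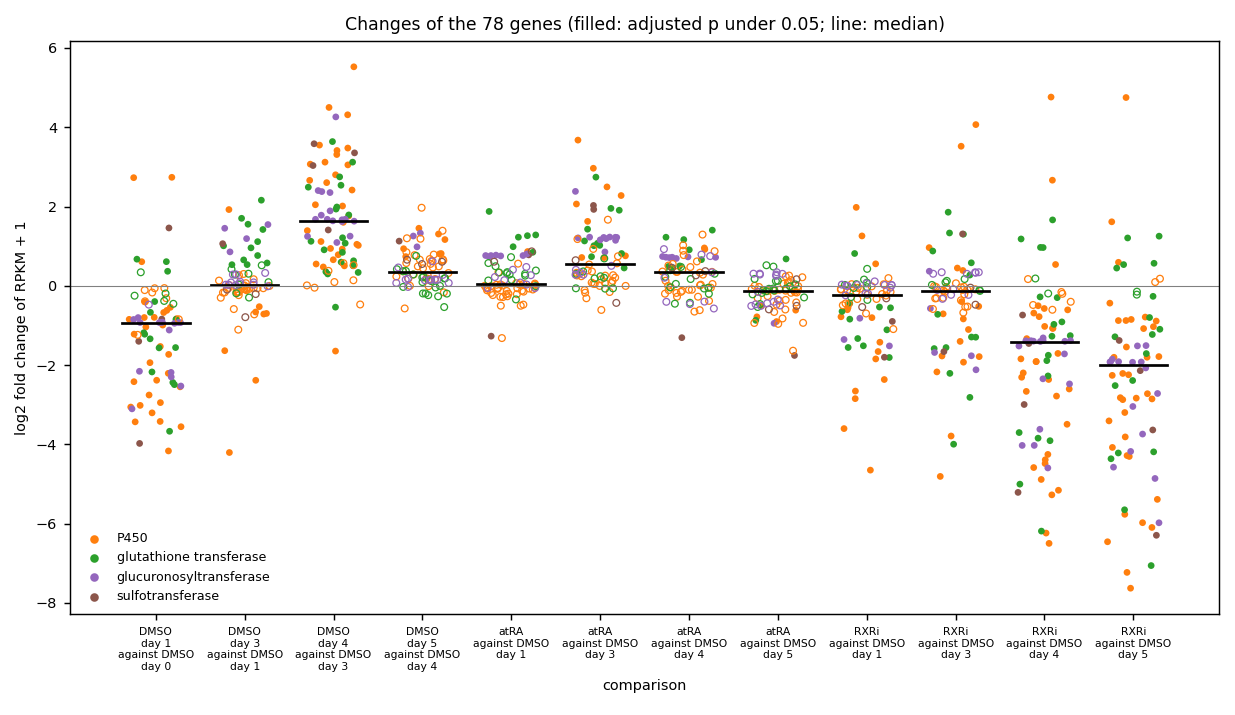
Log2 fold change of each of the 78 genes (points, coloured by enzyme class) in 12 comparisons (horizontal axis), with filled points for an adjusted p under 0.05 and a line at the median. The medians run from -2.0 for RXRi on day 5 to 1.63 for the DMSO step from day 3 to day 4, and the median for atRA on day 5 is -0.14.

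The Cyp1 genes, the classical Ahr targets that oxidise planar aromatic compounds and oestrogens, moved against most of the set in the first day of DMSO and under RXRi. Cyp1a1 (Entrez Gene 13076, chr9:57687928-57703824) was the most abundant of the 3, with a mean over the 13 groups of 17.2 RPKM. In DMSO it passed through a peak on day 1. On day 0 it read 6.28 and 4.91 RPKM in culture 1 and 5.49 and 4.67 in culture 2, and on day 1 35.7 RPKM in culture 1 and 48.2 and 45 in culture 2. On day 5 it read 0.0249 and 0.104 RPKM in culture 1 and 0.195 and 0.0753 in culture 2. The rise to day 1 was 2.73 ± 0.33, adjusted p = 3.06e-06, and the fall to day 3 was -4.21 ± 0.33, adjusted p = 1.94e-07. Every day 1 library lay above all other DMSO libraries. In RXRi on day 1 Cyp1a1 read 89.2 and 93.9 RPKM in culture 1 and 109.8 and 104 in culture 2, above all DMSO libraries, and the difference was 1.26 ± 0.33, adjusted p = 0.0124. That call was lost without DMSO culture 1 (adjusted p = 0.123) or RXRi culture 2 (adjusted p = 0.0933). On day 3 RXRi read 18.3 and 20.4 RPKM in culture 1 and 30.2 and 34.3 in culture 2. DMSO read 1.05 and 0.873 RPKM in culture 1 and 1.66 and 1.57 in culture 2 on that day, a difference of 3.52 ± 0.33, adjusted p = 2.94e-07. By day 5 the RXRi level had come down to 2.49 ± 1.35 RPKM, still above DMSO by 1.61 ± 0.33, adjusted p = 0.000426. With atRA it was not called on any day, with fold changes from -0.28 on day 4 to 0.17 on day 3 and adjusted p from 0.603 to 0.976.

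Cyp1b1 (Entrez Gene 13078, chr17:79706940-79715061), which hydroxylates oestradiol and polycyclic hydrocarbons, lay furthest above DMSO of all members in RXRi on days 1, 3, 4 and 5. In DMSO on day 3 it read 2.24 and 2.40 RPKM in culture 1 and 3.82 and 3.65 in culture 2. In RXRi it read 55.8 and 61.4 RPKM in culture 1 and 72.8 and 73.5 in culture 2. On day 5 DMSO had come down to low levels, at 0.321 and 0.0557 RPKM in culture 1 and 0.0598 and 0.0944 in culture 2. RXRi held 27.8 and 25.5 RPKM in culture 1 and 33.6 and 31.1 in culture 2. No library of the groups overlapped on either day. The fold changes were 1.98 ± 0.22 on day 1, 4.07 ± 0.22 on day 3, 4.76 ± 0.22 on day 4 and 4.75 ± 0.22, adjusted p = 8.78e-12 on day 5. The effect grew from day 1 to day 5 by 2.77 ± 0.32, adjusted p = 2.58e-06. Cyp1a2, the liver form, stayed at low levels, with means of 0.715 RPKM in DMSO and 1.51 in RXRi on day 1 and 0 and 0.0678 on day 5. It was called higher in RXRi on days 1 and 3 (0.55 ± 0.12 and 0.45 ± 0.12) and not on days 4 and 5. The call of day 1 was lost with a pseudocount of 0.1 (adjusted p = 0.0615) and by limma-voom (adjusted p = 0.101), and that of day 3 without RXRi culture 2 (adjusted p = 0.13). Of the genes around Ahr, the repressor Ahrr, itself an Ahr target, had a mean of 1.39 RPKM in DMSO and 4.30 in RXRi on day 1, and 0.0595 and 0.714 on day 5, with a fold change over the mean of 4 days of 1.09 ± 0.06, adjusted p = 3.22e-11.

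The bases before the RefSeq start sites of Cyp1a1 and Cyp1b1 are shown because these genes moved together and carry the GCGTG core that Ahr binds. Each window holds 250 bases upstream of the start on GRCm38.p6, printed in the direction of the gene, with the core in capitals. It appears as GCGTG in Cyp1a1, 54 bases before the start, and as its reverse complement CACGC in Cyp1b1, 76 bases before the start. The Cyp1a1 window (chr9:57697363-57697612, plus strand) lies inside the annotated span of the gene, whose record begins further upstream, and the Cyp1b1 window (chr17:79715062-79715311, minus strand) lies directly before its annotated span.
Cyp1a1: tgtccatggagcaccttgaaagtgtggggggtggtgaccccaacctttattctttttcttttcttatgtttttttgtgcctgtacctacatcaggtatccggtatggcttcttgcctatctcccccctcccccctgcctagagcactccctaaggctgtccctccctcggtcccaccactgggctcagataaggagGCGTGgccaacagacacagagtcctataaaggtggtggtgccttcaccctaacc
Cyp1b1: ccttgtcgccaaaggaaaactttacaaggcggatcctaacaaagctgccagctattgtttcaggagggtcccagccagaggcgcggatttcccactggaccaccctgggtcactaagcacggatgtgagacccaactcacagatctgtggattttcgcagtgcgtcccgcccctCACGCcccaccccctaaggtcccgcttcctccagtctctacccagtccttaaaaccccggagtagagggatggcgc
The core, searched on both strands, was present in such windows of 30.85% of 27025 genes and of 15 of the 71 measured enzymes with a window. Those 15 included Cyp2b10, Gstm1, Sult1b1 and Sult2b1, which were lower in RXRi on day 5.

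**Figure D3:**
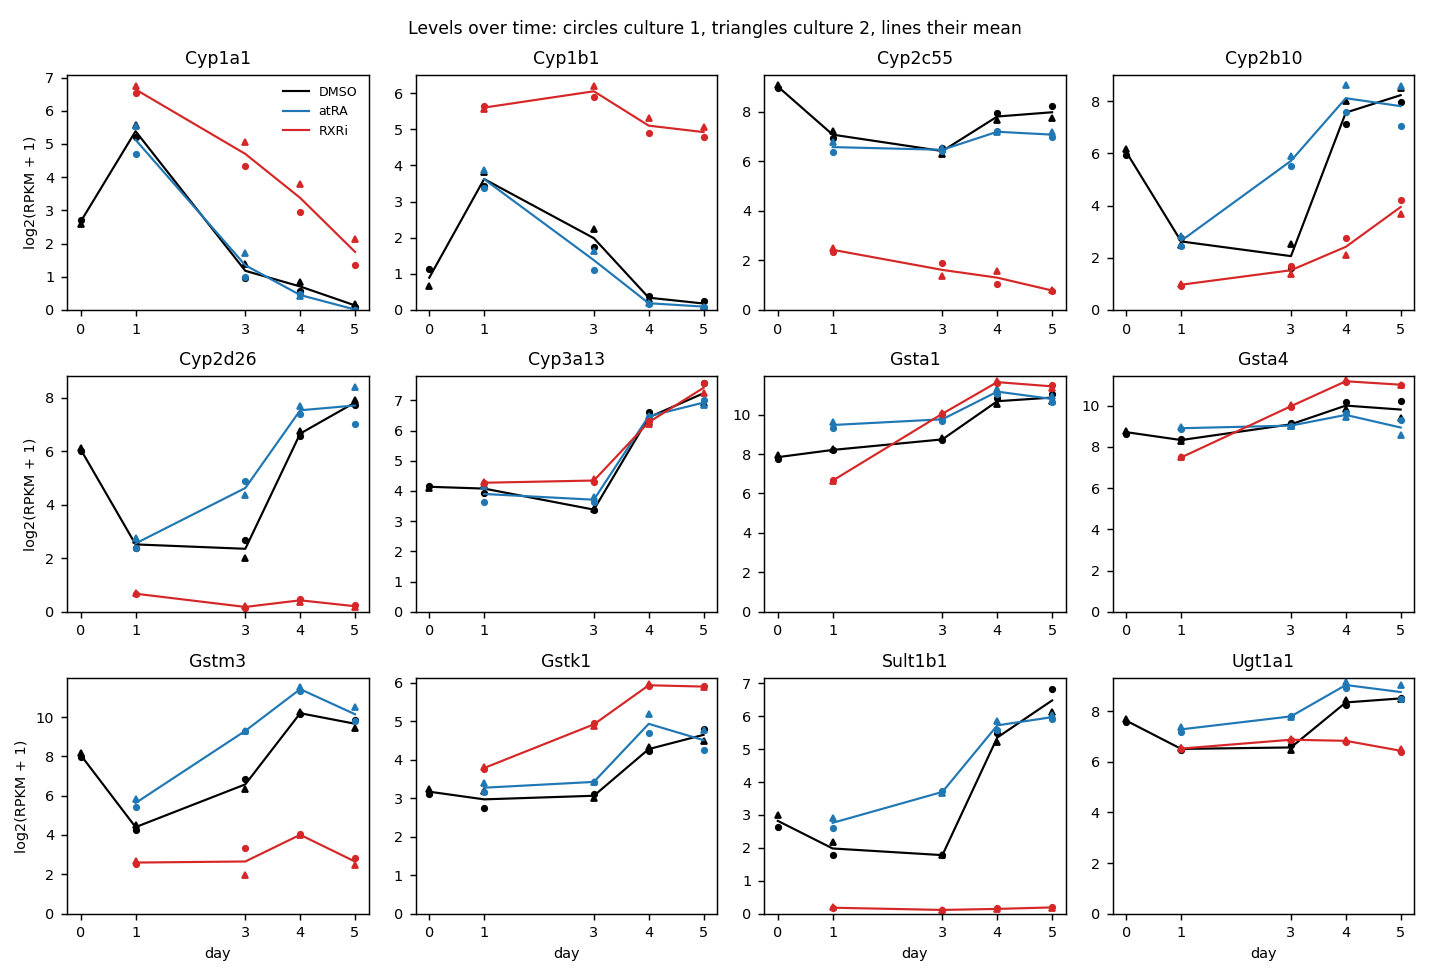
Levels of 12 enzymes as log2(RPKM + 1) (vertical axis) against day (horizontal axis), with circles for culture 1, triangles for culture 2, and lines through the group means in black for DMSO, blue for atRA and red for RXRi. Cyp1a1 and Cyp1b1 are highest in RXRi, Cyp2c55, Cyp2d26, Gstm3, Sult1b1 and Ugt1a1 are lowest there on days 4 and 5, and the means of Cyp3a13 on day 5 lie between 121 and 171 RPKM.

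The Cyp2 family, the largest P450 family of the mouse and the oxidisers of many drugs and fatty acids, held 28 of the 78 genes measured. They summed to 1176 ± 76.6 RPKM on day 0, 168 ± 21.3 RPKM in DMSO on day 3, 1241 ± 116 RPKM on day 4 and 1922 ± 60.9 RPKM on day 5. In RXRi the sum was 23.5 ± 0.971 RPKM on day 1 and 70 ± 13 RPKM on day 5. On day 5, 27 genes were lower in RXRi than in DMSO and 1, the vitamin D 25-hydroxylase Cyp2r1, higher, with a family median of -2.77. Of all genes, 35.1% were lower and 28.7% higher. From day 3 to day 4 in DMSO, 24 of 28 rose and 0 fell, against 20.5% and 34.3% of all genes. With atRA, 8 were higher on day 3, against 4.32% of all genes, and 4 lower on day 5, against 2.89%.

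Cyp2c55 (Entrez Gene 72082, chr19:39006940-39042690), which oxidises arachidonic acid, was the most abundant of the family, with a mean of 129 RPKM over the groups. On day 0 it read 482 and 497 RPKM in culture 1 and 546 and 532 in culture 2. On day 1 DMSO read 119.9 RPKM in culture 1 and 152 and 144 in culture 2. RXRi read 4.20 and 3.90 RPKM in culture 1 and 3.82 and 5.61 in culture 2. Within a day of treatment the RXRi libraries thus lay far below every DMSO library, with a log2 fold change of -4.65 ± 0.20, adjusted p = 6.85e-11. The difference was -4.81 ± 0.20 on day 3 and -6.50 ± 0.20 on day 4. On day 5 DMSO read 319.7 and 275 RPKM in culture 1 and 214 and 206 in culture 2. RXRi then read 0.435 and 1 RPKM in culture 1 and 0.190 and 1.26 in culture 2, a difference of -7.23 ± 0.20, adjusted p = 1.04e-14. Cyp2c55 was also lower in atRA on day 5, at 119 and 127 RPKM in culture 1 and 154 and 135 in culture 2, with -0.90 ± 0.20, adjusted p = 0.0131. This call was lost with a pseudocount of 0.1 (adjusted p = 0.0502) and without DMSO culture 1 (adjusted p = 0.222) or atRA culture 1 (adjusted p = 0.0533). It was also 1 of the 7 enzymes lower on day 5 than on day 0 in DMSO (-1.04 ± 0.20, adjusted p = 0.000253).

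Other Cyp2c genes shared the early difference. Cyp2c65 was at 31.2 ± 3.41 RPKM in DMSO and 1.65 ± 0.146 RPKM in RXRi on day 1, a difference of -3.60 ± 0.19, adjusted p = 8.35e-10, and the difference over the mean of 4 days was -4.56 ± 0.10. Cyp2c66, a close relative, was at 7 ± 0.137 RPKM in DMSO and 60.9 ± 4.51 RPKM in atRA on day 3, before the change of medium (2.97 ± 0.23, adjusted p = 2.61e-07). In DMSO it rose from day 3 to day 4 by 4.50 ± 0.23, adjusted p = 6.33e-10, to 178 ± 10.5 RPKM, and on day 5 atRA (257 ± 49.6 RPKM) was not called against DMSO (286 ± 22 RPKM, adjusted p = 0.763). Cyp2c68 had the largest fall of the set in the first day in DMSO, from 64.7 ± 6.61 RPKM to 2.66 ± 0.385 RPKM (-4.17 ± 0.28, adjusted p = 4.63e-09). Of the 50-base stretches of its transcript, 43.3% also occur in another gene. Cyp2c29 was at 15.8 ± 1.44 RPKM in DMSO and 1.36 ± 0.151 RPKM in RXRi on day 1 (-2.85 ± 0.68, adjusted p = 0.00623), a call lost by limma-voom (adjusted p = 0.0814) and with the shallow library kept. Its fall in DMSO from day 1 to day 3 (-2.38 ± 0.68, adjusted p = 0.027) was lost on leaving out any 1 of the 4 cultures, with adjusted p from 0.0509 to 0.23, and by limma-voom (adjusted p = 0.114). Cyp2s1 was at 1.24 ± 0.114 RPKM in DMSO on day 1 and 9.38 ± 8.42 RPKM on day 3 (1.92 ± 0.53, adjusted p = 0.023), a call lost without culture 1 (adjusted p = 0.119) or 2 (adjusted p = 0.0993) of day 1 or culture 1 of day 3 (adjusted p = 0.401), and by limma-voom (adjusted p = 0.117).

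Cyp2b10 (Entrez Gene 13088, chr7:25897658-25926624), the classical target of Nr1i3, had the largest rise of the set from day 3 to day 4 in DMSO. On day 3 it read 1.47 and 2.64 RPKM in culture 1 and 3.66 and 5.78 in culture 2. On day 4 it read 129.9 and 145 RPKM in culture 1 and 241 and 275 in culture 2, a rise of 5.53 ± 0.46, adjusted p = 1.08e-07. In atRA it was already higher on day 3, at 43.6 and 45.7 RPKM in culture 1 and 56.6 and 62.1 in culture 2, with no overlap with DMSO and the largest atRA difference of any enzyme on that day (3.68 ± 0.46, adjusted p = 3.83e-05). On day 5 RXRi held 14.7 ± 4.08 RPKM against 304 ± 78.1 RPKM in DMSO, a difference of -4.28 ± 0.46, adjusted p = 3.95e-07.

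Cyp2d26 (Entrez Gene 76279, chr15:82790107-82794452), a member of the Cyp2d cluster, lay furthest below DMSO of all members in RXRi on day 5. In DMSO on day 3 it read 4.74 and 6.13 RPKM in culture 1 and 3.08 and 3.06 in culture 2. By day 5 it read 208 and 215 RPKM in culture 1 and 238 and 251 in culture 2. In RXRi on day 5 it read 0.307 and 0.0590 RPKM in culture 1 and 0.102 and 0.150 in culture 2, levels of few reads, and the difference was -7.63 ± 0.31, adjusted p = 1.57e-12. The atRA libraries of day 5 split by culture, with 139 and 122 RPKM in culture 1 and 339 and 334 in culture 2, on either side of DMSO. Such a split by culture in atRA on day 5 was also seen for Cyp2b10, at 123 and 138 RPKM in culture 1 and 404 and 359 in culture 2, and for Cyp3a11, at 44.3 and 45.7 RPKM in culture 1 and 223 and 184 in culture 2. The enterocyte marker sum of the same 2 cultures was 25302 and 42454 RPKM, lower in culture 1, and its part in the result was not tested. Cyp2d22 was near 0 early, at 0.102 RPKM in DMSO on day 3, and rose from 5.75 ± 1.06 RPKM on day 4 to 17.5 ± 3.66 RPKM on day 5 (1.45 ± 0.23, adjusted p = 0.00168). Cyp2w1, by contrast, was at 11.1 ± 0.397 RPKM on day 0 and did not come back, with 0.836 ± 0.0101 RPKM on day 5, the largest fall over the DMSO course (-2.72 ± 0.17, adjusted p = 1.33e-09).

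The Cyp3a genes, which oxidise the widest range of drugs, were lower in RXRi on day 5 apart from Cyp3a13. There, 6 of the 7 were lower in RXRi and 0 higher, against 35.1% and 28.7% of all genes, with a median of -2.21. Cyp3a11 (Entrez Gene 13112, chr5:145854607-145879854), the main Nr1i2 target among them, read 66.8 and 54.5 RPKM in culture 1 and 138 and 137 in culture 2 in DMSO on day 5. In RXRi it read 0.105 and 0.0473 RPKM in culture 1 and 0.0204 and 0.0200 in culture 2. In DMSO both duplicates of culture 2 lay above those of culture 1, and the RXRi libraries lay far below both cultures (-6.46 ± 0.55, adjusted p = 2.47e-08). Cyp3a13 (Entrez Gene 13113, chr5:137892933-137925610), the most abundant Cyp3a of the organoids with a mean of 61.8 RPKM over the groups, read 198 and 178 RPKM in culture 1 and 115 and 124 in culture 2 in DMSO on day 5. In RXRi it read 183 and 199.7 RPKM in culture 1 and 139 and 164 in culture 2. These ranges overlapped, and the difference was 0.18 ± 0.19, adjusted p = 0.418. Cyp3a13 rose from day 3 to day 4 in DMSO by 3.05 ± 0.19, adjusted p = 4.42e-09, as did 4 other Cyp3a genes, and its RXRi means were 19.3 ± 0.790 RPKM on day 3 and 76.6 ± 3.56 RPKM on day 4. On day 3 alone it was higher in RXRi, by 0.96 ± 0.19, adjusted p = 0.000551. Cyp3a59 was at 2.81 ± 0.663 RPKM in DMSO on day 4 and 8.47 ± 2 RPKM on day 5 (1.31 ± 0.28, adjusted p = 0.0162), a call lost without culture 1 (adjusted p = 0.0847) or 2 (adjusted p = 0.0523) of day 4.

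Some of the P450 genes share letters in the bases before the start. The sequence CAAAGTCCA, which the nuclear receptor HNF4 binds, occurred on either strand in the 250-base windows of 8 measured enzymes (Cyp2c40, Cyp2c65, Cyp2c67, Cyp2c68, Cyp2c69, Cyp2c70, Cyp3a11 and Cyp3a16), of 71 with a window, and in 0.4514% of 27025 genes. All 8 were lower in RXRi on day 5, and so were 27 of 28 Cyp2 and 6 of 7 Cyp3 genes measured, and 35.1% of all genes. The part of the sequence in this was not tested. The 4 windows below show a pair of near copies, Cyp2c40 and Cyp2c69, the lowest gene of the group, Cyp2c70, and the Cyp3a gene described above. They are from GRCm38.p6, all on the minus strand and printed in the direction of the gene, with the HNF4 sequence in capitals. Cyp2c40 lies at chr19:39812815-39813064, Cyp2c69 at chr19:39886770-39887019, Cyp2c70 at chr19:40187287-40187536 and Cyp3a11 at chr5:145879855-145880104.
Cyp2c40: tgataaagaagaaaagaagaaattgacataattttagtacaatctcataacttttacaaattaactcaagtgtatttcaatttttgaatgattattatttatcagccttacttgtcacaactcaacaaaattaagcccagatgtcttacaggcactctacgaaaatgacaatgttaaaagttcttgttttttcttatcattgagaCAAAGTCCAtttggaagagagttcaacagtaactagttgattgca
Cyp2c69: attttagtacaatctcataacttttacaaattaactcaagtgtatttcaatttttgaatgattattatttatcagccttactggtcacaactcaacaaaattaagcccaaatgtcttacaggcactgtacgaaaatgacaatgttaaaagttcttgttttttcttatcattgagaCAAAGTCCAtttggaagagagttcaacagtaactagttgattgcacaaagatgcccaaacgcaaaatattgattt
Cyp2c70: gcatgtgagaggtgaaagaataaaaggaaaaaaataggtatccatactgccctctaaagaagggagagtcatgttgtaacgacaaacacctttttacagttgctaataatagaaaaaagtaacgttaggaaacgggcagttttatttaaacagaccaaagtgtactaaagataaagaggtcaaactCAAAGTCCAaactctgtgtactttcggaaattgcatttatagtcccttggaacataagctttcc
Cyp3a11: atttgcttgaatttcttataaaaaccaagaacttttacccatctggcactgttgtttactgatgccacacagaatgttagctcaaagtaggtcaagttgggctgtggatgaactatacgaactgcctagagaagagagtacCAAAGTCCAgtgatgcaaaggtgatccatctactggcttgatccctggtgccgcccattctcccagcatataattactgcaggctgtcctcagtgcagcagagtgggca
The windows of Cyp2c40 and Cyp2c69 are near copies set off against each other, and of the 50-base stretches of their transcripts 72.1% in Cyp2c40 and 54.8% in Cyp2c69 also occur in another gene, so that reads could be shared between them. On day 5 Cyp2c40 was at 19 ± 4.40 RPKM in DMSO and listed at 0 in all 4 RXRi libraries, and Cyp2c69 at 6.46 ± 1.98 RPKM and 0.00984 ± 0.0139 RPKM. Cyp2c70, which passed the limit on low values in only 4 libraries, was at 0.878 ± 0.545 RPKM in DMSO and listed at 0 in all 4 RXRi libraries. The gene Hnf4a had a mean of 248 RPKM in DMSO and 129 in RXRi on day 5, and 190.2 and 138 on day 3. The antioxidant response element TGACNNNGC was in the windows of 3 measured enzymes (Gsta3, Gstm5 and Gstm7) and of 11.52% of all genes. Direct repeats of AGGTCA with 1, 3 or 5 bases between were in none of the enzyme windows and in at most 0.0407% of all. These matches describe letters only.

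The glutathione transferases parted by class under RXRi. On day 5, 3 of 4 Gsta genes were higher and 1 lower, and all 7 Gstm genes were lower, with medians of 0.51 and -4.22. Of all genes, 28.7% were higher and 35.1% lower. Of the 3 Gsta genes higher, Gsta1 and Gsta2 share sequence and are not independent readings. The Gsta genes, which also reduce lipid hydroperoxides, summed to 3493 ± 534 RPKM in DMSO and 6853 ± 339.9 RPKM in RXRi on day 4. The Gstm genes summed to 2378 ± 88.3 RPKM in DMSO, 5656 ± 214 RPKM in atRA and 72.9 ± 3.49 RPKM in RXRi on that day.

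Gsta1 (Entrez Gene 14857, chr9:78230669-78242683) was the most abundant enzyme of the whole set, with a mean of 1328 RPKM over the groups, and its RXRi difference changed sign with time. On day 1 it read 289 RPKM in culture 1 and 302 and 298 in culture 2 in DMSO. In RXRi it read 96.9 and 104 RPKM in culture 1 and 96.2 and 101 in culture 2, lower in every RXRi library (-1.56 ± 0.14, adjusted p = 4.58e-07). On day 4 DMSO read 1770.0 and 1842 RPKM in culture 1 and 1394 and 1577 in culture 2. RXRi read 3111 and 3116 RPKM in culture 1 and 3143 and 3455 in culture 2, higher in every RXRi library (0.97 ± 0.14, adjusted p = 1.38e-05). The effect of day 5 exceeded that of day 1 by 2.12 ± 0.20, adjusted p = 2.39e-07. In atRA on day 1 it read 634 and 644 RPKM in culture 1 and 767 and 806 in culture 2, above DMSO by 1.26 ± 0.14, adjusted p = 2.81e-05, and on day 5 the difference was -0.07 ± 0.14, adjusted p = 0.834. Gsta2 ran in parallel, with -1.51 ± 0.15 on day 1 and 0.96 ± 0.15 on day 4 in RXRi and 1.28 ± 0.15 on day 1 in atRA. Of the 50-base stretches of their transcripts, 89.7% in Gsta1 and 64.2% in Gsta2 also occur in another gene, so the 2 genes are not independent readings and their split is uncertain. Most of the sharing of Gsta1 is with Gm3776, a gene outside the rule for members, at 82.9% of its stretches. Gsta2 shares most with Gsta1, at 44.8%. The level of Gsta1 may thus also hold reads of Gm3776.

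Gsta4 (Entrez Gene 14860, chr9:78191966-78209349), which conjugates the lipid peroxidation product 4-hydroxynonenal, has none of these stretches in common with another gene. On day 1 RXRi was lower (-0.84 ± 0.21, adjusted p = 0.00807), a call lost without DMSO culture 1 (adjusted p = 0.0748) or RXRi culture 2 (adjusted p = 0.0515). On day 5 RXRi was higher, at 2028 and 2093 RPKM in culture 1 and 1991 and 2148 in culture 2. DMSO read 1260.0 and 1088 RPKM in culture 1 and 695 and 669 in culture 2 (1.21 ± 0.21, adjusted p = 7.85e-05). In atRA on day 5 it read 590.0 and 662 RPKM in culture 1 and 378 and 385 in culture 2, below every DMSO library (-0.87 ± 0.21, adjusted p = 0.0196). That call was lost without DMSO culture 1 (adjusted p = 0.353) or atRA culture 2 (adjusted p = 0.152). Gsta3, known for conjugating the aflatoxin epoxide, was the Gsta gene lower in RXRi on day 5 (-1.10 ± 0.22, adjusted p = 0.000397) and the enzyme furthest above DMSO in atRA on day 1. It read 119 and 112 RPKM in culture 1 and 119 and 119.9 in culture 2 in atRA on day 1. DMSO read 30.5 RPKM in culture 1 and 30.7 and 33.4 in culture 2, a difference of 1.88 ± 0.22, adjusted p = 6.8e-05. By day 5 atRA (159 ± 40.5 RPKM) and DMSO (149 ± 61 RPKM) were not called apart (adjusted p = 0.812), and the effect of day 5 minus that of day 1 was -1.75 ± 0.32, adjusted p = 0.00904.

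Gstm3 (Entrez Gene 14864, chr3:107963696-107969174) lay furthest below DMSO of the phase II genes in RXRi on day 5, and it and Gstm1 (Entrez Gene 14862, chr3:108012250-108017973) conjugate epoxides and quinones. On day 4 Gstm3 read 1162 and 1124 RPKM in culture 1 and 1167 and 1242 in culture 2 in DMSO. In atRA it read 2531 and 2646 RPKM in culture 1 and 2798 and 3025 in culture 2. In RXRi it read 14.5 and 16.5 RPKM in culture 1 and 14.7 and 14.8 in culture 2. The 3 treatments did not overlap, with atRA above DMSO (1.23 ± 0.29, adjusted p = 0.0139) and RXRi far below (-6.19 ± 0.29, adjusted p = 2.04e-11). The atRA call of day 4 was lost without DMSO culture 1 (adjusted p = 0.0873), DMSO culture 2 (adjusted p = 0.0538) or atRA culture 2 (adjusted p = 0.116), and that of day 3, 2.74 ± 0.29, adjusted p = 8.08e-06, was not. On day 5 the RXRi difference of Gstm3 was -7.06 ± 0.29, adjusted p = 2.49e-12. Gstm1, the most abundant Gstm with a mean of 543 RPKM over the groups, was at 940.1 ± 104 RPKM in DMSO, 2480.2 ± 1.73 RPKM in atRA and 28.2 ± 0.755 RPKM in RXRi on day 4. The differences were 1.40 ± 0.21, adjusted p = 0.00033 for atRA and -5.01 ± 0.21, adjusted p = 2.49e-12 for RXRi. Gstm4 followed in atRA on day 4 (1.17 ± 0.22, adjusted p = 0.00226). Gstm5 stood apart in DMSO, at 58.7 ± 3.88 RPKM on day 3 and 40.1 ± 3.95 RPKM on day 4 (-0.54 ± 0.18, adjusted p = 0.0159). This fall was lost with median-of-ratios scaling (adjusted p = 0.0726) and without DMSO culture 1 of day 3 (adjusted p = 0.0906) or culture 2 of day 4 (adjusted p = 0.103).

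**Figure D4:**
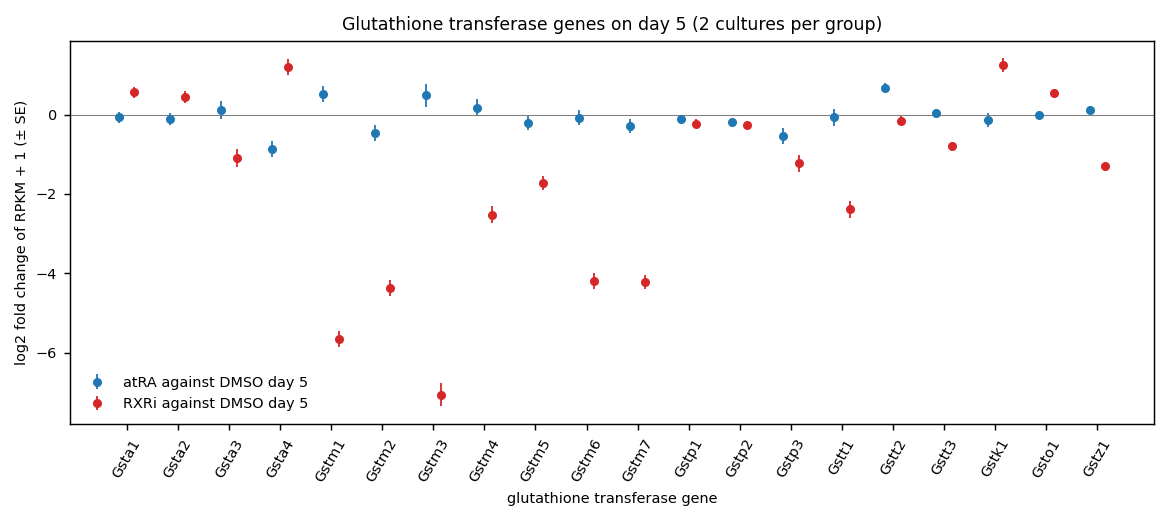
Log2 fold change against DMSO on day 5 of the 20 glutathione transferase genes for atRA and RXRi, with bars for the standard error of the fit. In RXRi the 7 Gstm genes lie below 0 and Gsta1, Gsta2, Gsta4, Gstk1 and Gsto1 above it, and for atRA Gstt2 is the gene called higher and Gsta4 the gene called lower.

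The other glutathione transferases moved in both directions under RXRi. Gstk1 (Entrez Gene 76263, chr6:42245935-42250441), the mitochondrial and peroxisomal form, was higher in RXRi on all 4 days. On day 4 it read 17.3 and 18 RPKM in culture 1 and 16.8 and 21.2 in culture 2 in DMSO. RXRi read 55.8 and 62.3 RPKM in culture 1 and 62.6 and 59.7 in culture 2, with no overlap (1.66 ± 0.17, adjusted p = 3.2e-07). The call of day 1 (0.81 ± 0.17, adjusted p = 0.00259) was lost without DMSO culture 1 (adjusted p = 0.067). Gsto1, the omega form that reduces dehydroascorbate, had a mean of 471.9 RPKM over the groups and was at 563 ± 17.1 RPKM in DMSO and 816 ± 35.9 RPKM in RXRi on day 5 (0.53 ± 0.11, adjusted p = 0.00029). On day 1 it had been lower in RXRi, at 193 ± 7.62 RPKM against 262 ± 3.67 RPKM in DMSO (-0.44 ± 0.11, adjusted p = 0.00642), a call lost without culture 1 of DMSO (adjusted p = 0.0524) or culture 2 of RXRi (adjusted p = 0.0641). The difference on day 5 minus that on day 1 was 0.98 ± 0.15, adjusted p = 5.85e-05. Gstp1, the pi form typical of epithelia, with a mean of 495 RPKM, was not called in either treatment on day 5, at 527 ± 81.9 RPKM in DMSO, 483 ± 29.9 RPKM in atRA and 449 ± 22.6 RPKM in RXRi on day 5 (adjusted p = 0.0703 for RXRi and 0.592 for atRA). Of the 50-base stretches of the transcripts, 62.3% in Gstp1 and 72.6% in Gstp2 also occur in another gene. The 2 are thus not independent readings, also where both were called, as from day 0 to day 1. Gstp3 was lower in atRA over the mean of 4 days (-0.35 ± 0.10, adjusted p = 0.0234), with 37 ± 3.65 RPKM in atRA and 54 ± 4.63 RPKM in DMSO on day 5. That call was lost with median-of-ratios scaling (adjusted p = 0.0757), with the shallow library kept, and without culture 1 of DMSO or culture 2 of atRA on day 1, 3 or 4, with adjusted p from 0.057 to 0.0686. Gstt3, the most abundant theta form, fell in DMSO from 41.9 ± 2.16 RPKM on day 0 to 13.5 ± 0.0611 RPKM on day 1 and was at 46.2 ± 5.30 RPKM on day 3, the smallest adjusted p of the enzymes for that second step (1.70 ± 0.11, adjusted p = 1.71e-08). Gstt2 was higher in atRA on every day, and was the 1 enzyme called higher on day 5, at 50.5 and 55.3 RPKM in culture 1 and 44.2 and 46.7 in culture 2. DMSO read 29.5 and 30 RPKM in culture 1 and 29.5 and 32.1 in culture 2 (0.68 ± 0.12, adjusted p = 0.00309). In RXRi it was not called on any day, with adjusted p from 0.187 to 0.907.

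The 7 Ugt1a genes, which glucuronidate bilirubin, phenols and oestrogens, are alternative first exons spliced to common ones, and their annotated transcripts overlap. Their levels correlated at r of 0.994 or more between any 2 over the 51 libraries. Within a library, the member with the fewest reads held 67% to 83.5% of the reads of the member with the most. The 7 are thus not independent readings, and a level or fold change cannot be assigned to 1 of them. Values are given below for Ugt1a1, but the counts of the 78 genes hold them as 7 except where said. All 7 are among the genes lower from day 0 to day 1 and higher from day 3 to day 4 in DMSO. All 7 are also among those lower in RXRi on days 4 and 5. Ugt1a7c had the highest mean, 266 RPKM. Ugt1a1, the bilirubin enzyme, read 100.0 and 102 RPKM in culture 1 and 87 and 89.1 in culture 2 in DMSO on day 3. In atRA it read 225 and 221 RPKM in culture 1 and 220.2 and 223 in culture 2, with no overlap (1.23 ± 0.14, adjusted p = 1.48e-05). On day 1 the atRA difference was 0.77 ± 0.14, adjusted p = 0.00346, a call lost without DMSO culture 1 (adjusted p = 0.0566) or atRA culture 2 (adjusted p = 0.076), and on day 5 it was 0.25 ± 0.14, adjusted p = 0.39. RXRi was not called on day 1 (adjusted p = 0.966). On day 5 RXRi was at 79.7 and 86.1 RPKM in culture 1 and 87 and 91.1 in culture 2. DMSO was at 387 and 353 RPKM in culture 1 and 363 and 355 in culture 2 (-2.07 ± 0.14, adjusted p = 1.13e-09). The RXRi level of Ugt1a1 thus stayed near that of DMSO on day 1, with means of 90.5 RPKM in DMSO on day 1 and 91.3, 117, 113 and 86 in RXRi on days 1, 3, 4 and 5, while DMSO rose.

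The 9 Ugt2 genes, which act on steroids, bile acids and drugs, were all lower in RXRi on days 4 and 5, with a median of -3.74 on day 5. Of all genes, 37% and 35.1% were lower on those days. Ugt2b34, the most abundant with a mean of 131 RPKM over the groups, was at 384 ± 132 RPKM in DMSO and 44.6 ± 7.71 RPKM in RXRi on day 5 (-3.05 ± 0.21, adjusted p = 1.03e-09). In atRA on day 5 it read 233 and 209 RPKM in culture 1 and 176 and 161 in culture 2. DMSO read 504 and 451 RPKM in culture 1 and 286 and 296 in culture 2, higher in every library (-0.95 ± 0.21, adjusted p = 0.011). The call was lost without DMSO culture 1 (adjusted p = 0.22) or atRA culture 2 (adjusted p = 0.072). Ugt2b5, another of the cluster, was near 0 in DMSO on day 1, at 0.0739 RPKM, and read 72.6 and 53.3 RPKM in culture 1 and 67.5 and 63 in culture 2 on day 5. It had the largest rise of all members over the DMSO course (3.76 ± 0.32, adjusted p = 5.5e-08). In RXRi on day 5 it read 0.0762 and 0.0257 RPKM in culture 1 and 0 and 0 in culture 2, and the RXRi effect of day 5 minus that of day 1 was -6.04 ± 0.45, adjusted p = 2.47e-08, the largest such change of the set.

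The 4 sulfotransferases measured were all lower in RXRi on day 5, as were 35.1% of all genes. Sult1d1, which sulfates catecholamines, was the most abundant Sult1 with a mean of 56.3 RPKM and went from 7.80 ± 1.11 RPKM in DMSO on day 3 to 89.4 ± 15.9 RPKM on day 4 (3.35 ± 0.26, adjusted p = 4.25e-08). Its RXRi difference was upward on day 3 (1.31 ± 0.26, adjusted p = 0.000617) and downward on day 5 (-1.38 ± 0.26, adjusted p = 0.000164). Sult1b1 (Entrez Gene 56362, chr5:87513327-87538195), which sulfates phenols and thyroid hormone, read 123 and 102 RPKM in culture 1 and 68.7 and 70.6 in culture 2 in DMSO on day 5. In RXRi it read 0.136 and 0.165 RPKM in culture 1 and 0.142 and 0.108 in culture 2 (-6.30 ± 0.18, adjusted p = 1.68e-14). Its rise over the DMSO course was 3.66 ± 0.18, adjusted p = 9.55e-11. Sult1c2 was the enzyme furthest below DMSO in atRA on day 5, at 17.4 and 16.9 RPKM in culture 1 and 11.6 and 12.3 in culture 2. DMSO read 77.9 and 66 RPKM in culture 1 and 34.6 and 37.5 in culture 2, with no overlap (-1.76 ± 0.33, adjusted p = 0.00399). Without DMSO culture 1 that call was lost (adjusted p = 0.096), and so was that of day 4, -1.31 ± 0.33, adjusted p = 0.0179, without the same culture (adjusted p = 0.168) or atRA culture 2 (adjusted p = 0.181). Sult2b1, the cholesterol sulfotransferase and the only Sult2 measured, rose in DMSO from 2.11 ± 0.104 RPKM on day 0 to 7.49 ± 0.239 RPKM on day 1 (1.46 ± 0.26, adjusted p = 0.000124). In atRA on day 1 it was at 2.52 ± 0.243 RPKM, below every DMSO library (-1.27 ± 0.26, adjusted p = 0.0077). Leaving out any 1 of the 4 cultures ended this call, with adjusted p from 0.0511 to 0.0871, as did limma-voom on recovered reads (adjusted p = 0.0606).

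The genes that sense foreign compounds, supply the enzymes or take away their products were read from 4 further lists. Beside their counts stand 20.5% of all genes higher and 34.3% lower from day 3 to day 4 in DMSO, 4.32% and 4.36% in atRA on day 3, and 28.7% and 35.1% in RXRi on day 5. Of 12 sensors and their partners, 8 were higher and 1 lower from day 3 to day 4 in DMSO, and 2 were higher and 8 lower in RXRi on day 5, with a median of -0.63 against -0.06 for all genes. Nr1i2 had means of 15.4 RPKM in DMSO and 4.15 in RXRi on day 1 and 27.6 and 0.261 on day 5, with -3.43 ± 0.05, adjusted p = 1.19e-18 over the mean of 4 days. Of 16 electron donors and cofactor suppliers, 11 rose and 0 fell from day 3 to day 4 in DMSO, 6 were higher and 0 lower in atRA on day 3, and 2 were higher and 11 lower in RXRi on day 5 (median -0.72). Por was higher in atRA over the mean of 4 days (0.85 ± 0.07, adjusted p = 5.7e-08), with 237 RPKM in DMSO and 516 in atRA on day 4. The cytochrome Cyb5a (-1.21 ± 0.05, adjusted p = 1.29e-12) and Papss2, which makes the sulfate donor (-1.54 ± 0.12, adjusted p = 2.46e-09), were lower in RXRi. Of 16 tested genes for other phase I and II enzymes, 15 rose and 0 fell from day 3 to day 4 in DMSO, 12 were higher and 0 lower in atRA on day 3, and 1 was higher and 14 lower in RXRi on day 5 (median -1.78). Adh1, the alcohol and retinol dehydrogenase, had a mean of 1395 RPKM in DMSO and 1.10 in RXRi on day 5 (-5.32 ± 0.16, adjusted p = 1.04e-14 over the mean of 4 days). The flavin monooxygenase Fmo5 had means of 73.8 and 0.592 RPKM (-3.08 ± 0.08, adjusted p = 2.1e-15), and Mgst1, a microsomal glutathione transferase, was lower (-1.07 ± 0.06, adjusted p = 3.1e-11). Of 15 tested transporters, 6 were higher and 7 lower in RXRi on day 5 (median -0.21), shares of the order of those of all genes. The efflux pumps Abcg2 (-1.76 ± 0.06, adjusted p = 3.46e-14) and Abcb1a (-1.84 ± 0.09, adjusted p = 3.54e-12) were lower in RXRi over the mean of 4 days, and the prostaglandin carrier Slco2a1 was higher (1.75 ± 0.07, adjusted p = 3.02e-13), at 22.1 RPKM on day 5 against 1.21 in DMSO.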

How the data were processed

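The values were RPKM per gene for 52 libraries, which the authors deposited in 1 table. Reads had been demultiplexed with bcl2fastq 2.17 and aligned with STAR 2.5.2b to mm10, per the submitters' processing notes. How reads were counted (tool, annotation, strand) is not given in the sources used here. All columns were matched to samples by title, and 0 were left unmatched. The steps of the RPKM gave back whole reads for 100% of 19708 genes above 0, to within 0.001 reads, and with them the library totals. The library with 12443 reads was left out.

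Values were put on the scale log2(RPKM + 1), duplicates were averaged within a culture, and all 13 groups entered 1 fit of limma 3.58.1 (R 4.3.3) with a mean trend and robust variances, on 26 culture means with 13 residual degrees of freedom. Tests were two-sided, over 12443 genes at 1 RPKM or more in 4 libraries, and an adjusted p under 0.05 was called. The fit was tested on simulated data. No 2 libraries held identical values. The numbers of the preparations were read as the 2 animals, which pairs the cultures. Over 78 pairs of groups the deviations of same-numbered cultures correlated at a median r of 0.149, from -0.317 to 0.759, and 47 were above 0.1.

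The members and lists were chosen with earlier results of these data known. Values are given for the most abundant member of each family and for up to 3 called members each way in each comparison with 1 sign in both cultures, and for up to 3 genes of each further list with the smallest p. Cyp1a2, Cyp2c40, Cyp2c69, Cyp2c70, Cyp2d10, Cyp2d34, Cyp2j6, Cyp2r1, Cyp3a11, Hnf4a, Tff1 and Ugt1a1 were described outside these rules or named after their values were seen. Gene positions and the bases upstream of starts are from RefSeq tables on GRCm38.p6, which held windows for 99 of the 112 genes. Shared stretches of 50 bases were counted in the GENCODE transcripts of the reference given here, whose build was matched by the mm10 name only. Among the 78 measured genes, 39 shared over 10% of these stretches with another gene and 16 over 50%. Alternatives were a pseudocount of 0.1, other limits on low values, median-of-ratios scaling, a replicate block, the shallow library kept, limma-voom on recovered reads and each culture left out, and 2 ways of counting genes with shared sequence, added after seeing the data. One gene that the rule names among the sensors is not reported here.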

Additional observations from a re-analysis of the deposited data

Results flagged for a closer look

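The effect of a treatment differed between days by the test of the difference itself, day 5 minus day 1 (limma, adjusted over all 12443 genes), for 66 enzymes under RXRi and 9 under atRA. Under RXRi the named genes that moved furthest downward were Ugt2b5 with -6.04, Cyp2d26 with -5.78 and Gstm3 with -5.25 on the log2 scale, and those that moved furthest upward were Cyp1b1 with 2.77, Gsta1 with 2.12 and Gsta4 with 2.05. Under atRA they were Sult1c2 with -2.37, Gsta3 with -1.75 and Gsta4 with -1.44. The sign was the same in both cultures for each of them. The atRA differences of Sult1c2 and Gsta4 were lost when some single cultures were left out, with adjusted p up to 0.1 and 0.0991, and that of Sult1c2 also by limma-voom (adjusted p = 0.271).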

How the results depend on the processing

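The counts of enzymes lower in RXRi on each day and of those that rose from day 3 to day 4 in DMSO stayed within 1.5 times of the reported counts under each alternative. The counts that moved further were those of the small steps and of atRA. From day 4 to day 5 in DMSO, 11 calls became 17 with the replicate block, 6 with the shallow library kept and 4 to 13 without single cultures, and from day 1 to day 3, 25 became 13 to 18 without single cultures. For atRA on day 1, 16 calls became 6 with the shallow library kept, 6 to 13 without single cultures, 10 with the Ugt1a genes counted once and 7 without genes that share over 50% of their sequence. On day 4, 18 became 8 with the shallow library, 3 to 19 without single cultures and 9 without genes that share sequence. On day 5, 8 became 14 with the replicate block, 2 with the shallow library and 4 to 19 without single cultures. Over the mean of days, 36 became 23 with the shallow library, and the change of effect from day 1 to day 5 fell from 9 to 2 with it and to between 3 and 23 without single cultures. The replicate block moved no other count by over 1.5 times and ended 2 of 786 calls of single genes.

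Of those 786 calls, a pseudocount of 0.1 ended 15, no filter 28, median-of-ratios scaling 22, limma-voom 51 and the shallow library 115, and leaving out 1 culture ended 429 of 5700. Signs turned for Gstz1 from day 0 to day 5 with scaling (0.0056), for Cyp1a2 in the RXRi change from day 1 to day 5 with limma-voom (1.81) and, with the shallow library, for Gstm4 (0.17) and Gsto1 (0.0090) from day 0 to day 1, Gstm6 (-0.16) and Sult1c2 (-0.18) from day 1 to day 3, and Gstm2 (0.051), Gstm5 (0.84) and Gstm7 (0.075) in RXRi on day 1. The cause was not tested. Levels below 0.233 RPKM in a 1 kb gene rest on fewer than 3 reads in the shallowest library.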
